A study of Mus musculus with 8 samples.

Results

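The Hedgehog genes of pancreatic ductal adenocarcinoma (PDAC) cells were described across *Smad4* states and TGFβ conditions. The set held 9 of the 53465 genes in the deposited count table, matched by gene symbol. These were the transcription factors *Gli1*, *Gli2* and *Gli3*, their inhibitor *Sufu*, the receptor *Ptch1*, the transducer *Smo*, the ligands *Shh* and *Ihh*, and the decoy receptor *Hhip*. The set was chosen by pathway with the expression levels and fold changes of these same libraries known, so the values of the 9 genes are given as a description with no p-value.

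RNA-seq was performed on B73 and B87, 2 cell lines grown from primary pancreatic tumors of a mouse model. In this model, Cre driven from the pancreatic *Ptf1a* locus activates the reverse tetracycline transactivator rtTA3, and doxycycline (Dox) then induces a GFP-linked short hairpin RNA (shRNA) against *Smad4*. Smad4-off cells were kept on Dox, whereas Smad4-on cells had been without Dox for 5 days before plating. From 24 h after plating, cells of each state were treated for 24 h with 100 pM TGFβ1 or with SB505124 at 2.5 µM. SB505124 blocks the kinase of the TGFβ type I receptor. The design gave 4 groups of 2 libraries with 1 library per line. All 8 libraries shared the Cre, the transactivator and the shRNA allele. None of them carried a control shRNA, so Dox withdrawal and *Smad4* restoration cannot be told apart. The labels do not say which *Smad4* shRNA each line carried.

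Hedgehog ligands bind Ptch1 and relieve its inhibition of Smo, after which the Gli factors leave Sufu, escape processing into repressors and activate target genes. *Gli1* and *Ptch1* are themselves targets, and their transcripts are commonly read as a measure of ligand-driven signaling. In PDAC, tumor cells often secrete the ligand and the surrounding fibroblasts respond to it, and *Gli2* is also known as a gene that TGFβ can induce in some cell types.

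The libraries held 18389235 to 23440550 counts, so that 3 counts, taken as the limit of detection, corresponded to 0.125 to 0.162 CPM (counts scaled to a common library size). Such limits cover counting error only. *Smad4* itself was at 675 (B73) and 795 (B87) counts in Smad4-off cells and at 1803 and 2737 in Smad4-on cells under SB505124, and at 809 and 713 against 2292 and 2265 under TGFβ1, matching the labels. The 8 epithelial marker genes summed to 3984 to 6253 CPM in B73 and to 1241 to 2158 CPM in B87. Of 11 fibroblast markers, 5 or 6 passed 3 counts per library, and their sum was 8.48 to 45.8 CPM in B73 and 75.2 to 693 CPM in B87. Of these fibroblast genes, *Lum* had no count in any library and *Dcn*, *Des* and *Thy1* had at most 3, whereas *Col1a1* reached 12305 counts in B87. Of 6 immune markers, 1 (*Cd68*) passed 3 counts in every library (sum 1.33 to 6.34 CPM), and the 4 endothelial markers summed to 0.702 to 26.1 CPM.

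To ask which Hedgehog genes these cells expressed, counts were first compared with the limit of detection. *Smo*, *Sufu*, *Gli3* and *Ptch1* had at least 528 counts in each of the 8 libraries. Both ligands were at or near the limit. *Shh* had 2 counts over all 8 libraries together and *Ihh* had 27, with 8 in the highest library. *Hhip*, a target gene whose product sequesters the ligands, had 8 counts in total and at most 3 in a library. *Gli1* ran from 2 to 13 counts, with 51 in total, and passed 3 counts in 6 of the 8 libraries. Thus *Ptch1* was well detected in libraries in which *Gli1*, *Hhip* and the ligands were barely detected. *Gli2* stood apart from the rest of the set, because it ranged from 0 to 1454 counts and passed 3 counts in 5 libraries.

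Levels of different genes were compared as CPM per kilobase of exon, using the union of GENCODE M21 exons. Over the 8 libraries, *Smo* had the highest level (17.6 ± 4.71 CPM per kb, SD), followed by *Sufu* (6.75 ± 0.404), *Gli3* (4.58 ± 1.16), *Ptch1* (2.44 ± 0.372) and *Gli2* (2.18 ± 3.27). The ranges of *Sufu* (6.05 to 7.21 CPM per kb) and *Gli3* (2.98 to 6.36) overlapped, as did those of *Gli3* and *Ptch1* (1.93 to 3.11), but within each of the 8 libraries *Sufu* was above *Gli3* and *Gli3* above *Ptch1*. *Gli1* (0.0607 ± 0.0338 CPM per kb) and *Ihh* (0.0530 ± 0.0393) also overlapped, and *Hhip* and *Shh* averaged 0.00549 and 0.00461 CPM per kb. The place of *Gli2* in this order depended on the condition. In Smad4-off cells under SB505124, *Gli2* was at 4.43 (B73) and 9.30 (B87) CPM per kb and exceeded *Gli3*, at 3.67 and 5.13, in both lines. In Smad4-on cells under TGFβ1, *Gli2* was at 0.00743 and 0.00742 CPM per kb, whereas *Gli3* was at 3.31 and 5.00.

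**Figure D1:**
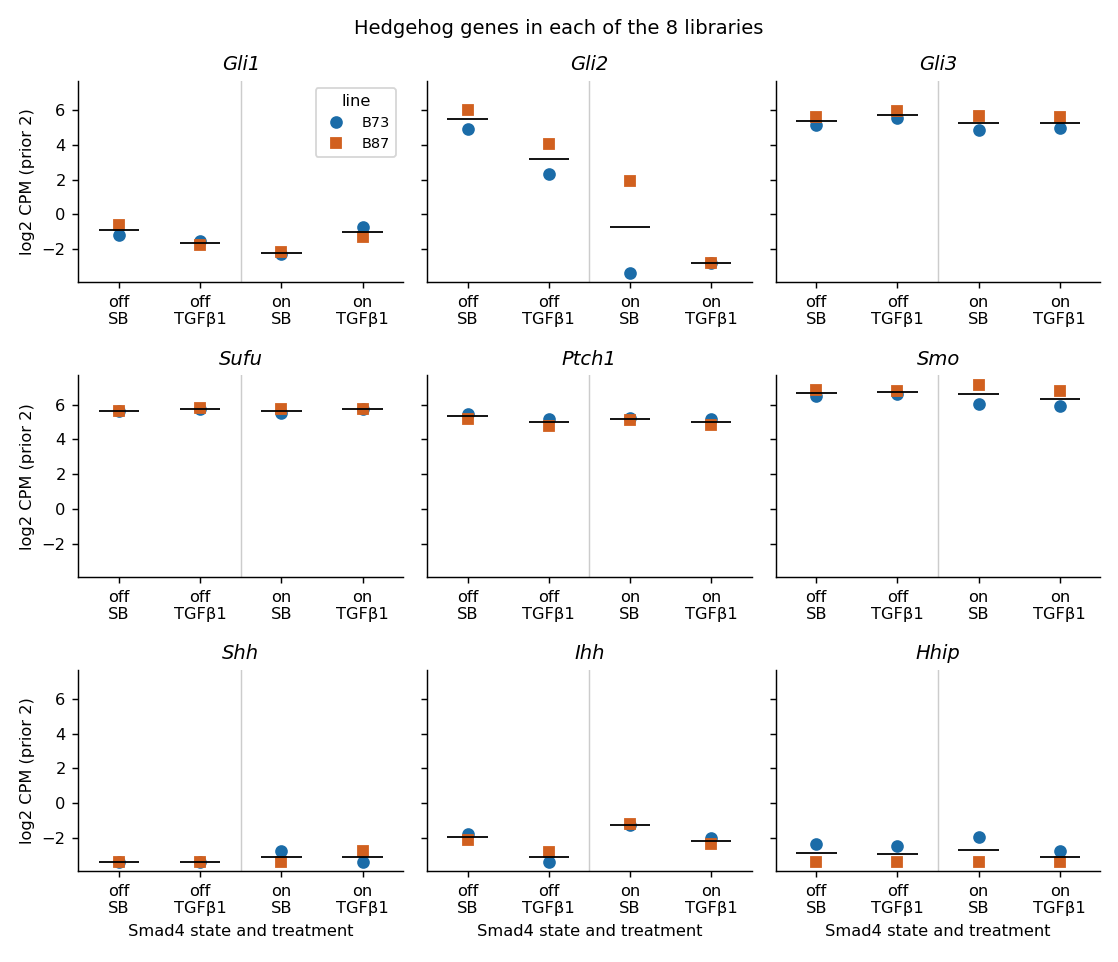
Each panel plots the log2 CPM (prior count 2) of a Hedgehog gene in the 8 libraries, by *Smad4* state (off, on) and treatment (SB, SB505124), with circles for B73, squares for B87 and a bar for the mean of both. *Gli2* runs from 5.999 in Smad4-off B87 cells under SB505124 down to near the bottom of the scale in Smad4-on cells. The exception is Smad4-on B87 cells under SB505124, at 1.909. *Gli3*, *Sufu*, *Ptch1* and *Smo* vary far less than *Gli2*, though *Smo* runs from 5.916 to 7.151 and *Gli3* from 4.839 to 5.934. *Gli1*, *Shh*, *Ihh* and *Hhip* lie near the bottom throughout.

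*Gli2* (ENSMUSG00000048402) lies on the minus strand of chromosome 1 (GRCm38, chr1:118834132-119053619) and encodes the Gli factor that acts mainly as an activator. The sequences upstream of the genes are shown because *Gli2* was the member called in the *Smad4* comparisons, while *Smo* and *Sufu* were not called and could be compared in the same window. RefSeq promoter windows of GRCm38.p6 matched 7 of the 9 genes (not *Gli1* and *Shh*). The 250 bases before the annotated start were chr1:119053620-119053869 (minus strand) for *Gli2*, chr6:29735247-29735496 (plus strand) for *Smo* and chr19:46396646-46396895 (plus strand) for *Sufu*. Capitals mark the pentamer CAGAC or its reverse complement GTCTG, the core that SMAD proteins bind.
Gli2: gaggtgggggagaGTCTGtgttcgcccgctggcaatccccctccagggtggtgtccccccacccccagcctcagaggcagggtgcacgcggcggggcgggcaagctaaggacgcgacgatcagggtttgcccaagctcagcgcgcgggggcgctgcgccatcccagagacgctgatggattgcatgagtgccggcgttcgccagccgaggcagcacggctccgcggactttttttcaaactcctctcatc
Smo: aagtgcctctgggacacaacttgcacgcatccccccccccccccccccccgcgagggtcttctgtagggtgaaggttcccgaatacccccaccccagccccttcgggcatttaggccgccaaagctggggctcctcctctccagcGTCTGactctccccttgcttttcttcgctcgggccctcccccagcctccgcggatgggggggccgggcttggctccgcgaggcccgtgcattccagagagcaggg
Sufu: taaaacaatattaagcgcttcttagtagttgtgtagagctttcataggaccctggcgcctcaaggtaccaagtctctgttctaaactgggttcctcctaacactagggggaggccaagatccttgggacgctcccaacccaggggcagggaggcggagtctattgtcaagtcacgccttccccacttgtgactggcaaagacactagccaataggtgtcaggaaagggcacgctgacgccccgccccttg
The pentamer occurred once upstream of *Gli2* and once upstream of *Smo*, and not in the *Sufu* window. It is a common word, held on either strand by 49.6% of 32851 RefSeq promoter windows of 300 bases (250 before and 50 after the start). The Gli consensus TGGGTGGTC (reverse complement GACCACCCA) was held by 0.253% of windows and by none of the 7 matched Hedgehog genes. The *Gli2* window of 300 bases was 67.3% G+C with 28 CpG dinucleotides, against medians of 52.7% and 7 over all windows. This did not set *Gli2* apart from the tested members that were not called. *Gli3* was at 71% and 39, *Ptch1* at 76.3% and 47, *Smo* at 67.7% and 17 and *Sufu* at 56.3% and 12.

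The comparison of Smad4-on with Smad4-off cells asks which transcripts depend on *Smad4*, with and without active TGFβ signaling. Under TGFβ1, *Gli2* had 113 counts (B73) and 336 counts (B87) in Smad4-off cells and 1 count in each line in Smad4-on cells, or 4.84 and 16.7 CPM against 0.0510 and 0.0510 CPM. *Gli2* was close to undetected in both lines once Dox was withdrawn. The ratio was 94.9-fold in B73 (95% exact counting interval 16.7 to 3780) and 328-fold in B87 (58.5 to 13005), the wide intervals reflecting the single count in each Smad4-on library. In the edgeR fit over all 8 libraries, the log2 fold change was -7.55 ± 1.13 (SE). In bulk RNA, fewer cells that express a gene and less RNA per cell cannot be told apart. The summed levels of 11 fibroblast markers went from 45.8 to 13.1 CPM in B73 and from 252 up to 693 CPM in B87. The higher sum in B87 came from *Col1a1*, a collagen gene, at 161 and 627 CPM. Without *Col1a1*, a choice made after the values were seen, the sum was lower in Smad4-on cells in both lines, as *Gli2* was, at 43.6 and 7.96 CPM in B73 and 91.5 and 65.2 CPM in B87. *Col3a1*, *Pdgfrb* and *Pdpn* were each lower in both lines, though *Pdpn* in B87 only went from 25.9 to 24.1 CPM. *Pdgfra* was at 0.771 and 0.766 CPM in B73 and 4.68 and 3.52 CPM in B87. *Col1a2* went the other way, with a mean over the lines of 1.01 CPM in Smad4-off and 1.63 CPM in Smad4-on cells. The endothelial sum was also lower in both, at 7.24 and 3.42 CPM in B73 and 26.1 and 4.79 CPM in B87. This came mainly from *Kdr*, with means over the lines of 15.6 CPM in Smad4-off and 1.56 CPM in Smad4-on cells. *Cdh5* was instead higher in Smad4-on cells, with means of 0.891 and 2.40 CPM. The epithelial sum was 3984 and 5818 CPM in Smad4-off and Smad4-on B73 cells and 1335 and 1241 CPM in B87 cells, and the part of these markers in the result was not tested.

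Under SB505124, when TGFβ receptor signaling was blocked, *Gli2* was at its highest in Smad4-off cells, with 609 (B73) and 1454 (B87) counts, or 30.4 and 63.9 CPM. Smad4-on cells had 0 counts in B73 and 88 counts in B87 (3.66 CPM). Both lines were lower with *Smad4* on, but B87 kept a detectable level where B73 did not. The difference was 17.4-fold in B87 (14.1 to 21.9) and, set against the limit of 3 counts per library, at least 188-fold in B73, where the exact counting interval for 0 counts began at 152-fold. The fitted log2 fold change was -4.98 ± 0.64. Under SB505124, the sum of all 11 fibroblast markers was 21.6 and 8.48 CPM in Smad4-off and Smad4-on B73 cells. In B87 cells it was 75.2 and 177 CPM, with *Col1a1* at 25.9 and 119 CPM. Without *Col1a1*, the sums were 21.3 and 7.89 CPM in B73 and 49.2 and 58.5 CPM in B87. The B87 sum was thus higher with *Smad4* on either way, unlike *Gli2*, and its part in the result was not tested. The fitted *Gli2* value rests on how much weight the B87 Smad4-on library receives, and went to -12.13 without that library.

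*Gli2* was the one Hedgehog gene of the 5 above the low-count filter that was called in either comparison, a call being an adjusted p under 0.05 with a change of over 2-fold. Over all 14301 genes tested, 3.12% were called under TGFβ1 and 1.09% under SB505124. *Gli2* passed the filter through the libraries in which it was high, and had been selected with this difference known, so the count is a description. By size of the fold change, it stood 8th of 258 called decreases under TGFβ1 and 7th of 65 under SB505124. Under TGFβ1, the call was lost when any of the 4 libraries compared was left out, with log2 fold changes of -7.56 without either Smad4-off library and of -8.18 and -6.44 without the B73 and the B87 Smad4-on library. Under SB505124, it was lost without the B73 Smad4-off library (-4.50). Without the line in the model, edgeR called *Gli2* in neither (log2 fold changes of -7.56 and -4.65), whereas DESeq2 called it under TGFβ1 (-7.72) and not under SB505124 (-4.69).

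The other Hedgehog genes above the filter differed little with *Smad4*. *Gli3*, on chromosome 13 and the factor most often processed to a repressor, had 1085 and 1225 counts in Smad4-off cells and 622 and 940 in Smad4-on cells under TGFβ1, a log2 fold change of -0.45 ± 0.12. It was lower in both lines, by less than 2-fold. Under SB505124 it had 705 and 1120 counts in Smad4-off and 528 and 1234 in Smad4-on cells (-0.11 ± 0.12), and the lines went opposite ways. *Ptch1*, on chromosome 13, had 831 and 550 counts in Smad4-off against 695 and 551 in Smad4-on cells under TGFβ1 (0.01 ± 0.10). Under SB505124 it had 885 and 822 against 680 and 814 (-0.18 ± 0.10). *Sufu*, on chromosome 19, varied least, between 46.5 and 55.4 CPM over all libraries, with log2 fold changes of -0.03 ± 0.09 and 0.03 ± 0.09.

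*Smo*, on chromosome 6, encodes the transducer on which Hedgehog inhibitors act, and its *Smad4* differences were larger in B73 than in B87 under TGFβ1. In B73 it had 2313 counts in Smad4-off and 1181 in Smad4-on cells under TGFβ1, and 1836 against 1231 under SB505124, or log2 differences of -0.72 and -0.46. In B87 the counts were 2222 against 2133 and 2585 against 3414, or -0.03 and 0.32. The line difference in the *Smad4* effect was 0.74 ± 0.13 on the log2 scale and was not called, beside 0.392% of all genes. That of *Gli2* was 4.40 ± 1.20 and not called either. The *Smad4* fold changes of *Smo* over both lines were -0.38 ± 0.22 and -0.05 ± 0.22.

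**Figure D2:**
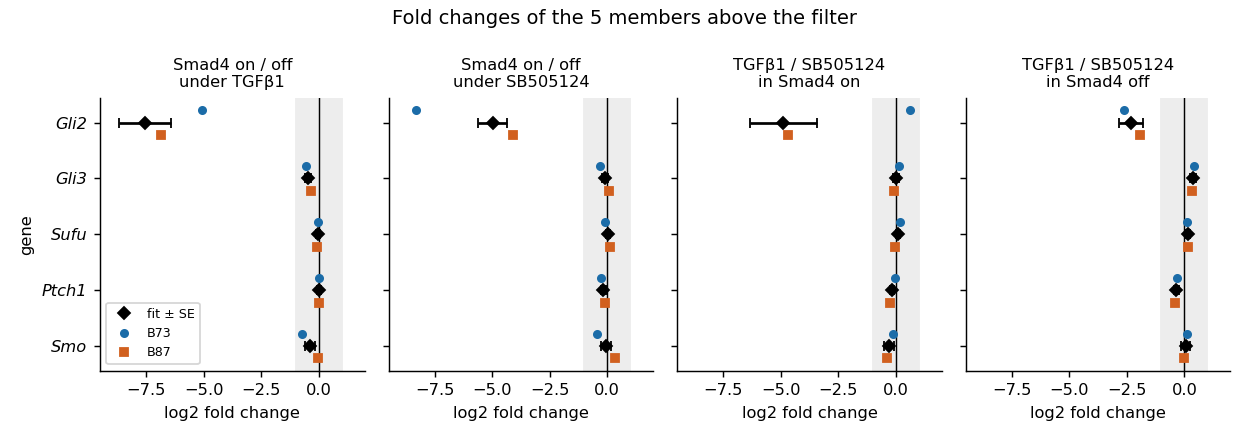
Log2 fold changes of the 5 Hedgehog genes above the filter in 4 comparisons, with diamonds and bars for the edgeR fit ± SE, circles for B73 and squares for B87, and grey for changes under 2-fold. *Gli2* lies far to the left except in B73 in the third panel (0 against 1 count), whereas the other 4 genes stay inside the grey band in all 16 fitted values.

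TGFβ1 was next compared with SB505124 within each *Smad4* state. No group was untreated, so an effect of TGFβ1 and an opposite effect of SB505124 cannot be told apart in these comparisons. In Smad4-off cells, *Gli2* went from 609 to 113 counts in B73 and from 1454 to 336 in B87, or 6.28-fold (5.13 to 7.74) and 3.82-fold (3.39 to 4.31) lower under TGFβ1. Both lines moved the same way (fitted log2 fold change -2.32 ± 0.53). *Gli2* was called beside 5.93% of all genes, again only as a description, because it had been selected with these values known. The call was lost when any of these 4 libraries was left out, with fold changes of -1.65 and -2.97 without the B73 and the B87 SB505124 library and of -2.30 and -2.31 without the TGFβ1 libraries. In Smad4-on cells the comparison rested on a single library. B87 went from 88 counts to 1, a ratio of 71.8 (12.6 to 2868), while B73 had 0 counts under SB505124 and 1 under TGFβ1, from which no fold can be given. The fitted value of -4.89 ± 1.45 rested on the 88 counts of that B87 library and became 2.39 without it, so its adjusted p is not taken as a call of *Gli2* here, where 13.9% of all genes were called.

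None of *Gli3*, *Ptch1*, *Smo* and *Sufu* was called for TGFβ1 in either state. In the fit over both lines, the largest of their differences in the 4 comparisons above was 1.37-fold, that of *Gli3* with *Smad4* under TGFβ1. In B73 alone, *Smo* differed more in that comparison (log2 fold change -0.72, against -0.55 for *Gli3*). In Smad4-off cells, *Gli3* was higher under TGFβ1 in both lines (log2 fold change 0.36 ± 0.12) and *Ptch1* lower (-0.35 ± 0.10). In Smad4-on cells the same values were 0.02 ± 0.13 and -0.16 ± 0.10. *Ihh* had 4 and 3 counts in Smad4-off cells under SB505124 and 0 and 1 under TGFβ1, and 6 and 8 against 3 and 2 in Smad4-on cells. *Gli1* had 7 and 13 counts against 6 and 4 in Smad4-off cells, and 2 and 3 against 10 and 6 in Smad4-on cells. These were too few for a test.

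Whether the *Smad4* effect differed between the treatments was asked with an interaction term, which called 0.189% of all genes. For *Gli2* the difference was -2.57 ± 1.84 and not called, and it became 4.65 without the B87 Smad4-on library under SB505124. The *Smad4* effect on *Gli2* was therefore not shown to differ between TGFβ1 and SB505124. The SB505124 and TGFβ1 comparisons share no library, while each group enters both a *Smad4* and a TGFβ comparison.

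Between the lines, *Gli2* was higher in B87 in 3 of the 4 conditions and at 1 count in both lines in the other (log2 fold change 1.76 ± 0.47 over conditions, called beside 8.37% of all genes). The conditions of a line served as its replicates here. *Gli2* had also been selected with these levels known, so the call is a description. The call was lost without the B87 Smad4-off library under SB505124 (2.44), either Smad4-off library under TGFβ1 (1.77 and 1.78) or either Smad4-on library under TGFβ1 (1.75 and 1.74). *Smo* (0.60 ± 0.155) and *Gli3* (0.58 ± 0.09) were higher and *Ptch1* (-0.28 ± 0.07) lower in B87 by less than 2-fold. The fibroblast marker sum was also higher in B87 than in B73 in each condition and the epithelial sum lower, and the part of these in the line differences was not tested.

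The wider pathway was taken from a list of 50 further Hedgehog genes, of which 41 passed the filter. The other 9, among them the targets *Foxl1* and *Nkx2-2*, had at most 7 counts in any library. The only ligand gene well detected was *Dhh*, with 231 to 362 counts in B73 and 23 to 74 in B87 (log2 fold change -2.90 ± 0.28 for B87 over B73). *Hhat*, which attaches palmitate to the ligands, was higher in B87 (1.71 ± 0.31). Both line differences take the conditions of a line as its replicates.

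For *Smad4* under TGFβ1, 1 of the 41 genes was called (2.44%, against 3.12% of all genes), and the median log2 fold change of the list was -0.05 against -0.01 over all genes. This was *Gas1*, a co-receptor that helps ligand bind Ptch1. It had 49 and 39 counts in Smad4-off cells and 6 and 12 in Smad4-on cells, a log2 fold change of -2.20 ± 0.49 (adjusted p = 0.0457 by edgeR). The call was lost on leaving out any library except the Smad4-on SB505124 ones, at adjusted p = 0.057 without either Smad4-off SB505124 library, 0.233 and 0.060 without the B73 and the B87 Smad4-off TGFβ1 library, and 0.182 and 0.157 without the Smad4-on TGFβ1 libraries.

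Under SB505124, 1 of the 41 was called (2.44%, against 1.09% of all genes). This was *Foxf2*, a forkhead gene induced by Hedgehog signals in gut mesenchyme (list median 0.03, all genes 0.00). It went from 450 to 1397 counts in B73 and from 785 to 1877 in B87, and rose by 1.47 ± 0.24 (edgeR adjusted p = 0.0389). Leaving out any of these 4 libraries ended the call, with adjusted p of 0.25 and 0.113 without the B73 and the B87 Smad4-off library and of 0.228 and 0.0607 without the Smad4-on ones. The interaction called none of the 41 genes by edgeR, and DESeq2 with the line called 2, *Bmp4* (-1.52) and *Foxf2* (-1.20).

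TGFβ1 against SB505124 moved more of the list, as it did of all genes. In Smad4-on cells, 7 of 41 were called (17.1%, against 13.9% of all genes), 3 up and 4 down. *Gas1* fell by 3.57 ± 0.46 (log2), from 56 to 6 counts in B73 and from 203 to 12 in B87 (edgeR adjusted p = 0.00174). *Bmp4*, a growth factor gene and Hedgehog target, went from 168 to 29 and from 1884 to 292 counts (-2.42 ± 0.23, edgeR adjusted p = 0.000500). The other decreases were *Jag2*, a Notch ligand gene (-1.56 ± 0.41), and *Ccnd2*, encoding cyclin D2 (-1.17 ± 0.12). The genes that rose were *Snai1*, encoding the repressor Snail and a known TGFβ target (2.28 ± 0.56), *Foxf1* (1.27 ± 0.32) and *Stk36*, encoding a kinase related to fused (1.16 ± 0.20). *Snai1* lost its call without the B73 TGFβ1 library (1.65). *Foxf1* lost it without the B73 SB505124 library (0.96) or the B87 TGFβ1 library (1.10), and *Jag2* without the B73 (-1.62) or B87 (-1.53) SB505124 library or the B87 TGFβ1 library (-0.97). The genes listed as known targets were thus divided, with 2 called up and 3 down of 9 tested.

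In Smad4-off cells, 3 of 41 were called (7.32%, against 5.93% of all genes). *Stk36* rose by 1.18 ± 0.20 on the log2 scale, and *Ccnd2* and *Gas1* fell by 1.12 ± 0.12 and by 1.51 ± 0.38. *Gas1* went from 103 to 49 counts in B73 and from 153 to 39 in B87 (edgeR adjusted p = 0.0431), and its call was lost without any of these 4 libraries (-1.29, -1.69, -2.07 and -1.01) or either Smad4-on TGFβ1 library (-1.51). *Stk36* lost its call without the B87 SB505124 library (1.00) or either TGFβ1 library (1.16 and 1.21), and *Ccnd2* went below 2-fold without the B87 TGFβ1 library (-0.92).

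By role, genes between Smo and Gli (16 tested) and genes of ciliary trafficking (8 tested), whose products carry the signal through the primary cilium, held *Stk36* alone among their called genes in the *Smad4* and TGFβ comparisons. Between the lines, with the conditions of a line as its replicates, 7 of the 41 were called, against 8.37% of all genes. *Foxf1* (3.22 ± 0.25), *Bmp4* (2.80 ± 0.16), *Snai1* (2.40 ± 0.43), *Hhat* and *Evc2*, a ciliary gene (1.10 ± 0.17), were higher in B87, and *Dhh* and *Jag2* (-1.59 ± 0.30) lower.

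**Figure D3:**
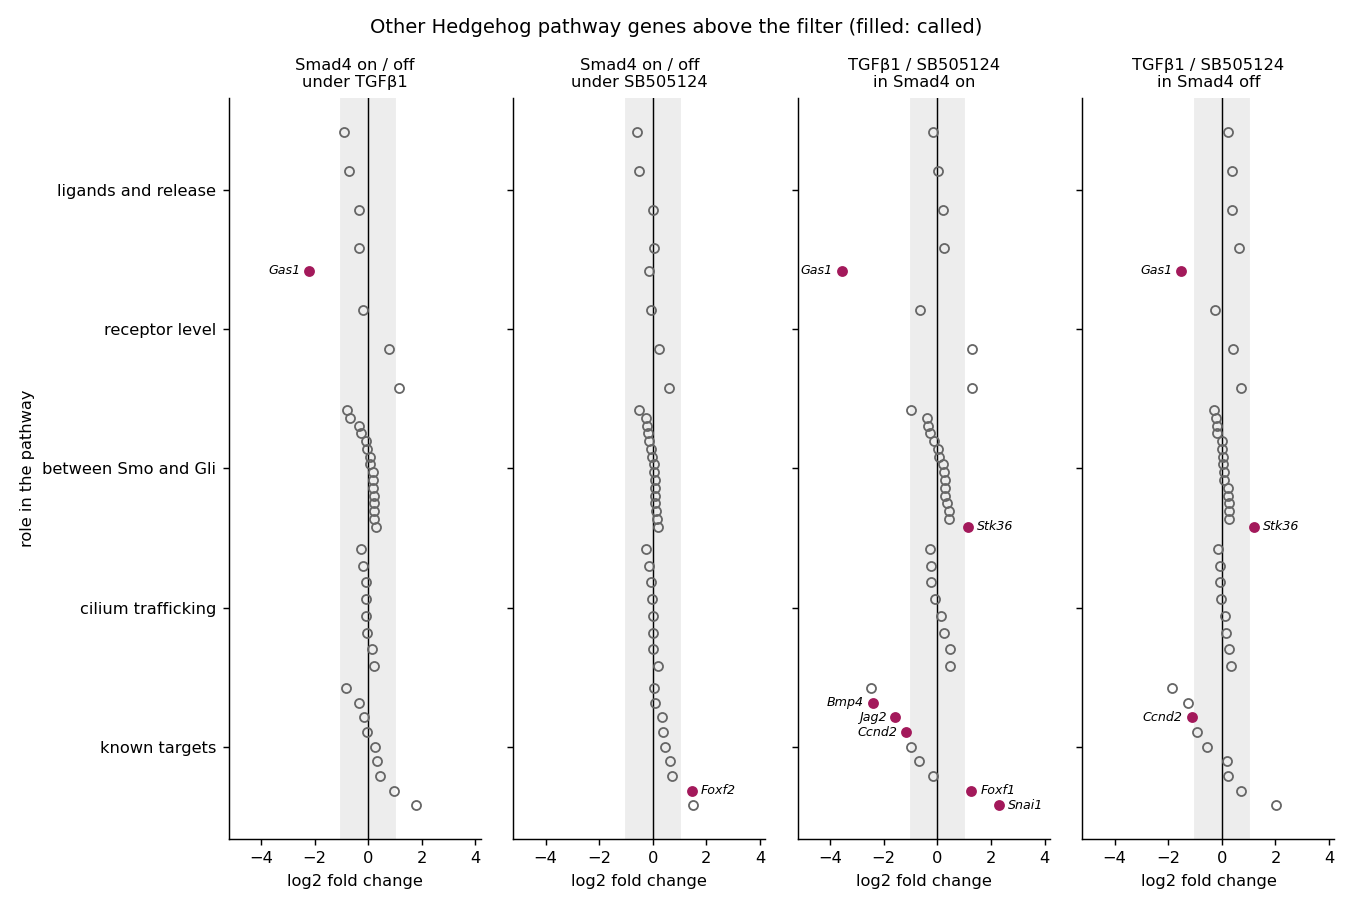
Log2 fold changes of the 41 further Hedgehog pathway genes above the filter, grouped by role, in 4 comparisons, with filled points for called genes and grey for changes under 2-fold. A single gene is called in each *Smad4* comparison (*Gas1*, *Foxf2*), where 3.12% and 1.09% of all genes were called, and 7 (Smad4-on) and 3 (Smad4-off) in the TGFβ1 comparisons, where 13.9% and 5.93% of all genes were.

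Genes whose log2 CPM followed *Gli2* closely over the 8 libraries, among genes with a mean log2 CPM of at least 0, were *Med11* (Pearson r = 0.979), *Slc35g1* (0.963) and *Fbxl5* (0.961). Their amplitudes were much smaller, with a log2 range of 0.26 for *Med11* and 1.41 for *Slc35g1*. *Slc35g1* had 819 and 779 counts in Smad4-off and 405 and 459 in Smad4-on cells under TGFβ1. Among the Hedgehog genes, r with *Gli2* was 0.58 for *Smo*, 0.54 for *Gli3*, 0.23 for *Ptch1* and 0.05 for *Sufu*. With the mean of each line taken out, r was 0.60 for *Smo*, 0.55 for *Gli3*, 0.60 for *Ptch1* and -0.06 for *Sufu*. The genes most like *Ptch1* were *Pcgf6* (0.959), *Gins2* (0.947) and *Fam76b* (0.947). The points share lines and treatments, and after the mean of each line was taken out, 1 of the 5 genes most like *Gli2* (*Med11*) and none of the 3 most like *Ptch1* stayed on the list.

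Neighboring genes were examined to see whether transcripts around *Gli2* varied with it. The window of 1 Mb on either side was chosen after values were seen. It held 51 other genes, of which 10 passed the filter. *Tfcp2l1*, encoding a transcription factor of epithelial and stem cells, starts 426 kb from the start of *Gli2* in the direction of its transcription. It was called lower in Smad4-on cells under TGFβ1 (-1.68 ± 0.37, edgeR adjusted p = 0.0435) and under TGFβ1 in both *Smad4* states (-3.36 ± 0.37 with *Smad4* on and -1.52 ± 0.33 with it off), but not with *Smad4* under SB505124 (0.17 ± 0.32). *Inhbb*, encoding an activin and inhibin subunit, starts 369 kb on the other side and was called higher under TGFβ1 in both states (1.91 ± 0.48 and 2.66 ± 0.46). The other 8 tested neighbors were called in none of these 4 comparisons.

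**Figure D4:**
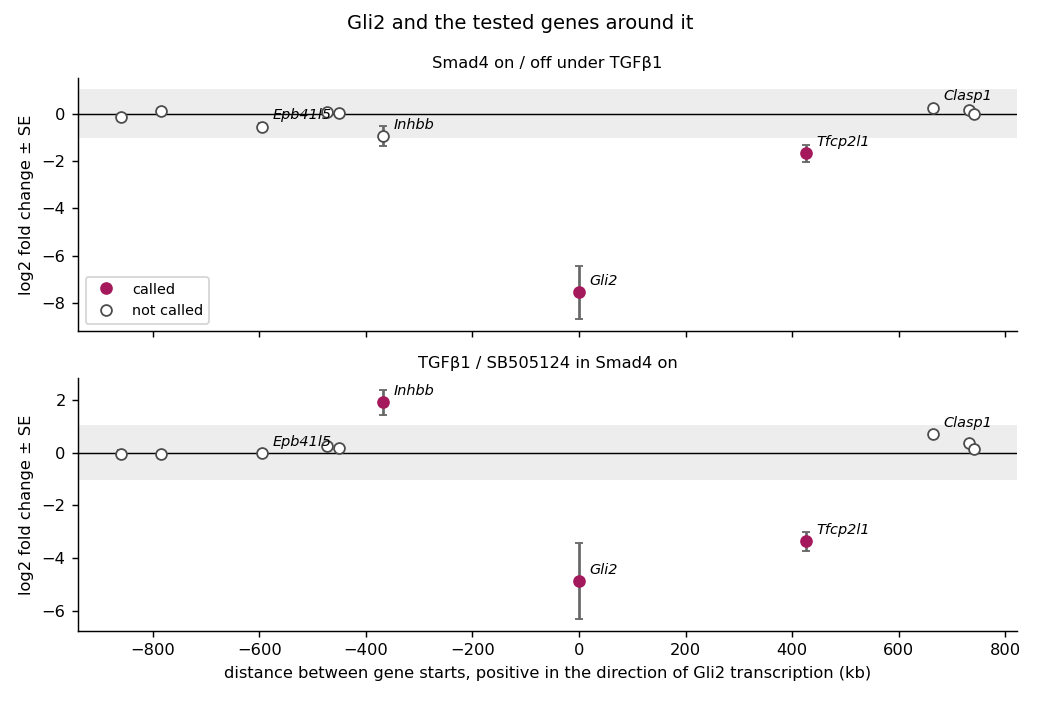
Log2 fold change ± SE of *Gli2* and the 10 tested genes around it against the distance between gene starts in kilobases, for *Smad4* under TGFβ1 (top) and for TGFβ1 against SB505124 in Smad4-on cells (bottom), with filled points for called genes. *Tfcp2l1* is the only called neighbor in the top panel, and *Tfcp2l1* and *Inhbb* go opposite ways in the bottom panel, where the *Gli2* point rests on the 88 counts of 1 library and passes the thresholds of the fit only with it.

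Shared sequence was checked last. The 75-base stretches of each transcript were sought, on the sense strand, in GENCODE M21 genes outside the Hedgehog set and the named wider-list genes. None of those of *Gli1*, *Gli2*, *Gli3*, *Ptch1*, *Sufu*, *Shh*, *Ihh* or *Hhip* occurred there, and 0.757% of those of *Smo* did. The Hedgehog genes, the *Gli* genes among them, were not compared with each other. No other annotated gene overlapped the exons of *Gli2*, *Ptch1*, *Smo*, *Sufu* or *Ihh*. Genes on the opposite strand covered 19.9% of the exon bases of *Gas1*, 1.96% of those of *Gli3* and 1.93% of those of *Hhip*. *Shh* was overlapped by 2 such genes (15.7% and 12.7%), as was *Gli1* (5.31% and 1.24%). As the strand setting of the counting was not stated, reads of these overlapping genes may be mixed.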

How the data were processed

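RNA was made into stranded poly(A) libraries and read single-end. The authors trimmed reads with Trimmomatic 0.36, aligned with STAR 2.5.3a to GRCm38 (mm10) and counted with featureCounts 1.6.3, per the labels. The strand and multi-mapping settings were not given in the sources used here. The deposited table holds raw counts per gene. Libraries were grouped by the line, Dox state and treatment in their titles. No label says that libraries came from several cultures per line. With the line in the model, p-values of the *Smad4* and TGFβ comparisons rest on how far the group differences varied between the 2 lines. Those between the lines rest on how far the line difference varied over the groups, and measure no spread between cultures.

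Counts were tested with edgeR 4.0.16 in R 4.3.3 (TMM, filterByExpr, quasi-likelihood F-test, Benjamini-Hochberg adjustment over 14301 genes) in a model with 4 groups and the line. A call was an adjusted p under 0.05 with a change over 2-fold. SE was approximated from the log2 fold change and F. CPM were scaled by TMM, and log2 CPM used a prior count of 2. Fold changes per line came from log2 CPM, ratios from CPM with exact 95% counting intervals, and floors from 3 counts. These cover counting error only. The study's methods use DESeq2 and name no covariate. The line was added because each line went through all 4 groups and its name in the titles pairs the libraries, whose deviations from the group means correlated at 0.642 to 0.774 over 6 pairs of groups. The scripts were tested on simulated data.

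The members, lists and tests were chosen with earlier results of these data known. Named genes were all members, wider-list genes called in the *Smad4* or TGFβ comparisons, the 5 genes most like *Gli2* and 3 most like *Ptch1*, and *Smad4*. Some items, including 2 of the 5 genes most like *Gli2*, are not reported here. *Tfcp2l1*, *Inhbb* and the list genes called only between lines were named after their values were seen. Alternatives were edgeR without the line, DESeq2 1.42.0 in both forms, DESeq2 size factors, other count filters, no fold rule, each library left out in turn, other lengths, each line alone and, added after seeing the data, the fibroblast list without *Col1a1*. All 59 listed genes were found in GENCODE M21.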

Additional observations from a re-analysis of the deposited data

How the results depend on the processing

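Without the line (no replicate block), edgeR called 0 Hedgehog members in each of the 4 *Smad4* and TGFβ comparisons in place of 1, and 0, 0, 3 and 0 of the wider list (*Smad4* under TGFβ1, *Smad4* under SB505124, TGFβ1 in Smad4-on, TGFβ1 in Smad4-off) in place of 1, 1, 7 and 3. DESeq2 without the line (no replicate block) called *Gli2* for *Smad4* under TGFβ1, 0 members in the other 3, and 0 wider genes for *Smad4* under TGFβ1 and 4 for TGFβ1 in Smad4-on cells. DESeq2 with the line kept *Gli2* in both *Smad4* comparisons, called 0 members for TGFβ1 in either state and between the lines, and 2 wider genes in the interaction. At least 10 counts in every library removed *Gli2* itself, so 0 members and, for *Smad4* under TGFβ1, 0 wider genes were called. With no count filter, the wider list gave 3, 2 and 5 calls (*Smad4* under TGFβ1, under SB505124, TGFβ1 in Smad4-off) and 3 in the interaction, and 1 member had a called line difference in the *Smad4* effect. With no fold rule, 18 wider genes were called for TGFβ1 in Smad4-on cells, and 4 members and 11 wider genes between the lines. The cause of these shifts was not tested, beyond the filter that removes *Gli2*.

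Leaving out each library in turn gave 0 to 1 members called in each of the 4 comparisons and between the lines, and 0 to 2, 0 to 1, 5 to 9 and 0 to 4 wider genes in the same order. *Gli2* for TGFβ1 in Smad4-on cells was between -5.54 and 2.39 when a library was left out, 2.39 being the value without the B87 SB505124 library, and was 0.62 in B73 alone (0 against 1 count). Elsewhere *Gli2* kept its direction in these 4 comparisons under every alternative. DESeq2 size factors in edgeR changed no count of calls by over 1.5 times. Depth limits *Gli1*, *Shh*, *Ihh* and *Hhip*, for which no change could be tested.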
